A study of Mus musculus with 37 samples.

Results

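The comparison described here sets lymph node T cell receptor beta (TRB) repertoires of 10 mice given 3 agents together against those of 5 mice of the group labelled WTNT, both labelled d105. These are 15 of the 37 libraries of the series, 1 library per mouse, chosen by their treatment and time labels alone. The 10 triple-therapy mice carried the MMTV-PyMT transgene, in which a mammary tumor virus promoter drives the polyoma middle T antigen and mammary tumors arise. Their chow held PLX3397 (pexidartinib), which blocks the macrophage receptor CSF1R, from day 80 of life at a mean of 40 mg/kg each day. PTX, the chemotherapy, was injected at 10 mg/kg from day 85, and aPD-1, which blocks the T cell checkpoint receptor PD-1, from day 87 with 1 mg at first and 0.5 mg afterwards, both at intervals of 5 days. The protocol describes the transgenic mice as female littermates assigned by tumor volume. Of them, 6 carried the label PLX+PTX+aPD-1_R and 4 the label PLX+PTX+aPD-1_NR, written below as R and NR, suffixes that the labels do not explain. The 5 WTNT mice had the genotype FVBN and no agent in their labels, which do not spell out WTNT or give their sex. Genotype, the 3 agents and any difference in housing or age lie on the same side of the comparison, so their effects cannot be told apart.

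A beta chain is assembled in the thymus by joining 1 variable (TRBV), 1 diversity (TRBD) and 1 joining (TRBJ) segment. Nuclease trims the segment ends and the enzyme TdT inserts bases between them. The result is the third complementarity-determining region (CDR3), the loop that touches the peptide held by an MHC molecule. Sequences close to the germline segments are made again and again and recur in many animals as public clonotypes, whereas most others are private to 1 animal. In lymph nodes most T cells are naive, and an expanded clone shows as a sequence far above the rest. Genomic DNA was amplified, so reads count rearranged genes rather than transcripts, and fewer T cells of a kind cannot be told apart from poorer amplification of their rearrangement.

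Triple-therapy libraries held 1455363 to 2449606 reads and 45911 to 87090 listed clonotypes, and WTNT libraries 1350579 to 1765833 reads and 59073 to 79706 clonotypes. Both ranges were wider in the triple-therapy mice. The difference in mean reads did not pass the exact permutation test over every regrouping of the 10 and 5 mice (p = 0.118). A clonotype with 0 reads may still make up 1.22 to 2.06 of every 1000000 reads in a triple-therapy library and 1.70 to 2.22 in a WTNT library (3 reads each). Reads are PCR copies without molecular identifiers, so this limit and every interval given for a share of reads cover counting error only.

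No feature of the repertoire passed an adjusted p of 0.05 under the main settings. The few calls under alternative settings are given beside the results they touch or in the closing section on processing. Clonotypes were tested only where many mice shared them, so private sequences could not be compared between groups. The CDR3 bases of the 4 tested clonotypes of lowest p in each direction are shown so that the receptors can be recognised, with inserted bases in capitals and the remaining bases, assigned to the segments, in lower case. Each sequence is the most read form of its clonotype over the 15 libraries, 5′ to 3′.
TRBV1 TRBJ2-3 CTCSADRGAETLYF: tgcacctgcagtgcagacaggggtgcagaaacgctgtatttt
TRBV2 TRBJ2-1 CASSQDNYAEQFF: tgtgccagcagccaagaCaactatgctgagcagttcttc
TRBV5 TRBJ2-7 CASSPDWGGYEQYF: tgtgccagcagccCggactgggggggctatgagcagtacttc
TRBV3 TRBJ2-7 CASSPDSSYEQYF: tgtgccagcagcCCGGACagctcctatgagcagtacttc
TRBV29 TRBJ2-4 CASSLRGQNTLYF: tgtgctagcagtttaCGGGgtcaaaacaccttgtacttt
TRBV1 TRBJ2-7 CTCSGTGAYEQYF: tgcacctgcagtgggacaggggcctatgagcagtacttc
TRBV3 TRBJ1-1 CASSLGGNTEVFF: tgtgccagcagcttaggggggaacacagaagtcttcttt
TRBV19 TRBJ2-7 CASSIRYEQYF: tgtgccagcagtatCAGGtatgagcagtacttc
The upper 4 had higher levels in triple-therapy mice and the lower 4 had lower ones. Inserted bases numbered 0 to 6 in these 8 forms, and 3 of the forms had none. The amino acid clonotypes were each written in 5 to 12 nucleotide forms over the 15 mice. All 8 clonotypes were read in both groups. The forms of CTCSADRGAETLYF and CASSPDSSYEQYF were read in 9 and 4 triple-therapy libraries and in 0 WTNT libraries. Those of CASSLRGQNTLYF, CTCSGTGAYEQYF and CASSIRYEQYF were read in 2, 1 and 3 WTNT libraries and in 0 triple-therapy libraries. The other forms printed were read in both groups. The clonotypes were chosen for their low p, and 82.7% of amino acid clonotypes were in 1 library only. These numbers therefore do not mark a form as belonging to a group.

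TRBV1 TRBJ2-3 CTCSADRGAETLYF had the lowest p of the 5242 public clonotypes tested, those found in at least 50% of the d105 libraries. It had 50 to 275 reads in the 10 triple-therapy libraries (median 123.5), and 35, 0, 0, 1 and 0 reads in WTNT mice 1 to 5. In normalised counts per 1000000 (CPM), which carry the authors' rescaling of each segment pair, it stood at 10.6, 22.2 and 42.1 as lowest, median and highest of the triple-therapy mice. WTNT mice stood at 8.07, 0, 0, 0.306 and 0 CPM, below every triple-therapy mouse. The clonotype was picked for its low p among 5242, and how many others separate the groups was not counted. The separation is therefore no support for a difference. The form printed above was read in 9 triple-therapy libraries and in 0 WTNT libraries. The log2 difference, triple therapy minus WTNT on log2(CPM + 10), was 1.52 ± 0.32 (SE), with a limma adjusted p of 0.393. On raw reads limma called it (log2 difference 2.63, adjusted p 0.0207).

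TRBV2 TRBJ2-1 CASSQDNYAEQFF was also read in all 10 triple-therapy libraries, with 73 to 307 reads, and in 1 WTNT library, WTNT 3, with 151 reads. Its level was 24.3, 45.4 and 87.1 CPM as lowest, median and highest of the triple-therapy mice, against 55.0 CPM in WTNT 3 and 0 in the other 4 WTNT mice. The log2 difference was 1.92 ± 0.43 (limma adjusted p 0.393). The call depended on WTNT 3, without which the difference was 2.46 and the limma adjusted p 0.00517. Outside the triple-therapy group the clonotype was read in 1 of 5 WTNT and 3 of the 8 other d105 libraries, so it entered the test only through the group where it is high, and neither p is support for a difference. The most read form, with 1 inserted base, made up 76.7% of the reads of this clonotype and was found in 8 triple-therapy and 1 WTNT libraries.

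TRBV5 TRBJ2-7 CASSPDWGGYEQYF had 11 to 111 reads in the 10 triple-therapy libraries and 17 reads in WTNT 2, with 0 in the other WTNT mice. Its mean was 36.2 ± 25.5 CPM (n = 10) against 2.64 ± 5.91 CPM (n = 5), a log2 difference of 1.77 ± 0.41 (limma adjusted p 0.393). TRBV3 TRBJ2-7 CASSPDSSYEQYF was read in 9 of 10 triple-therapy libraries, at up to 134 CPM, and in WTNT 4 at 11.3 CPM. Its log2 difference was 1.97 ± 0.54 (limma adjusted p 0.977), and with 3 of the 8 other d105 libraries holding it, this clonotype too entered the test only through the triple-therapy mice.

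The 4 public receptors with the lowest p in the other direction were read in at least 4 of the 5 WTNT mice, and in 5, 2, 8 and 3 of the 10 triple-therapy mice in the order printed. TRBV29 TRBJ2-4 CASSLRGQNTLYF stood at 18.5, 33.4, 24.3, 18.7 and 36.8 CPM in the 5 WTNT mice, while the triple-therapy mice had a lowest value of 0, a median of 0.106 and a highest of 22.6 CPM. TRBV3 TRBJ1-1 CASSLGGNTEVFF averaged 13.0 ± 10.5 CPM in triple-therapy mice and 40.2 CPM in WTNT mice (25.7 to 50.8), and TRBV19 TRBJ2-7 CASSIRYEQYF 4.22 ± 8.43 against 23.2 ± 8.79 CPM. TRBV1 TRBJ2-7 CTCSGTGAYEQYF was read in 2 of 10 and 4 of 5 libraries, with at most 7 and 23 reads. Log2 differences of these 4 ran from -1.37 to -1.06, each with a limma adjusted p of 0.977. Outside the WTNT group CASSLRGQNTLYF was read in 5 triple-therapy and 3 of the 8 other d105 libraries, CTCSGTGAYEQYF in 2 and 6, and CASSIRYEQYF in 3 and 5. Each of these thus entered the test only through the group where it is high, and its p is no support for a difference. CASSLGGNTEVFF, in 8 and 7, did not. In each of the 4 at least 1 triple-therapy mouse lay within the WTNT range, as the plot of public clonotypes by mouse shows. For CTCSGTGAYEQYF all 10 did, since WTNT 1 had 0 reads.

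None of the 8 receptors was peculiar to the groups compared. In the 8 other d105 libraries, from MMTV-PyMT mice given PLX3397 with PTX or PTX alone, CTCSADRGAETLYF was read in 6, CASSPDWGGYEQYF in 7 and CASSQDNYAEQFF in 3. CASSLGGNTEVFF was read in 7 of these 8 and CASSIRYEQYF in 5. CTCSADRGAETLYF had 30, 439, 79, 130, 55 and 188 reads in PLX+PTX mice 1 to 6, and 0 in PTX mice 1 and 2.

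**Figure D1:**
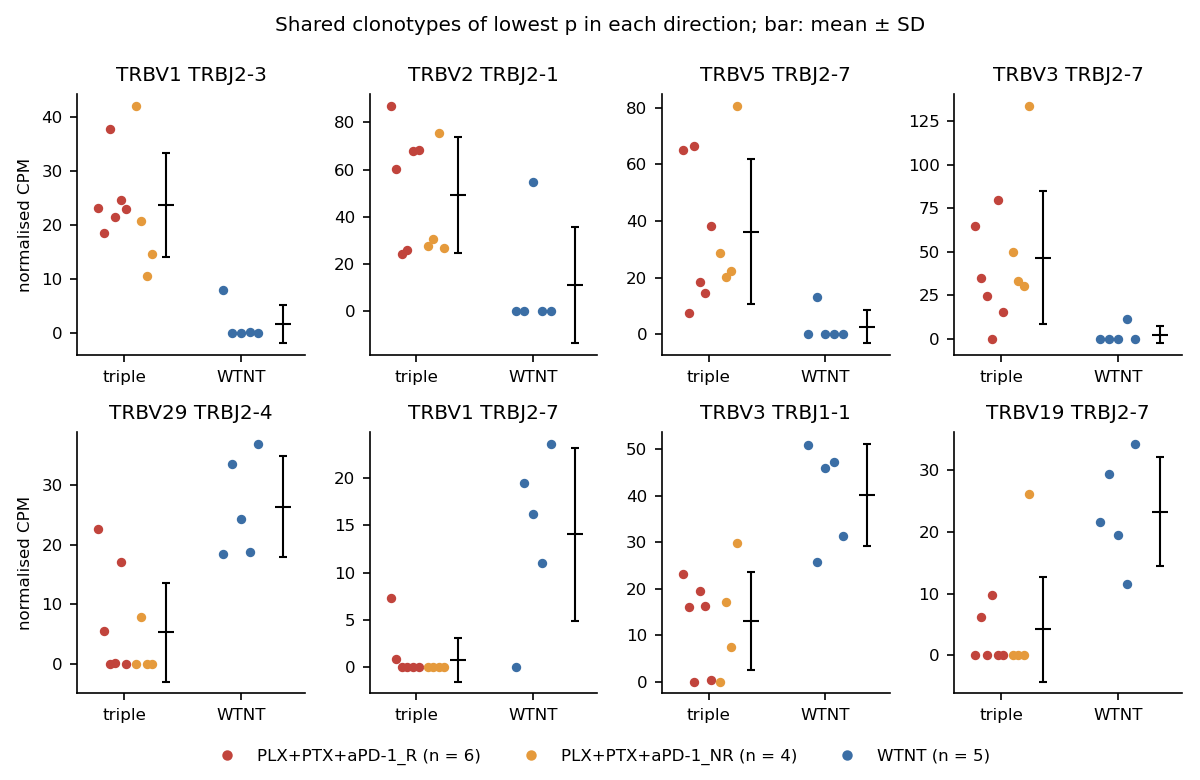
Normalised CPM (vertical axis, linear) of the 8 public clonotypes with the lowest p in each direction, named by segment pair, with 1 point per mouse and mean ± SD beside each group. The upper row was higher in triple-therapy mice, where TRBV2 TRBJ2-1 lay between 24.3 and 87.1 CPM and the one WTNT mouse with reads reached 55.0. In the lower row at least 1 triple-therapy mouse lay within the WTNT range in each panel. In TRBV1 TRBJ2-7 all 10 did, since WTNT 1 was at 0.

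Over all 5242 public clonotypes, limma on log2(CPM + 10) called 0 (0% called), and 248 had an unadjusted p under 0.05 (4.73%). Of these, 143 were lower in triple-therapy mice and the others higher. The median log2 difference was -0.02, with 2519 clonotypes above 0 and 2723 below. The median standard error of 0.47 sets what could be seen, since the 95% interval of the median clonotype reached 0.97 to either side. edgeR on reads called 0, with 49 at an unadjusted p under 0.05, and DESeq2 called 12, all higher in triple-therapy mice. Of the 23 libraries that the filter counts, 10 are triple-therapy and 5 are WTNT. A clonotype absent from WTNT mice thus passes it more easily than one absent from triple-therapy mice. The direction of the 12 calls is therefore no support for a difference, and the part of the filter in it was not tested. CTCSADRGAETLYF was among the 12 (DESeq2 adjusted p 0.0418).

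Presence gave the same count. A total of 16468 amino acid clonotypes were found in 5 to 12 of the 15 libraries after each was thinned to 1090573 reads, and Fisher's exact test called 0 of them (0%), with 460 at an unadjusted p under 0.05 (2.79%). Of those 460, 204 were found more often in triple-therapy mice and 256 more often in WTNT mice. TRBV3 TRBJ2-7 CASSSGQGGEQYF, chosen after its values were seen, was in 0 of 10 triple-therapy and 5 of 5 WTNT libraries (Fisher's exact test p = 0.000333, the smallest that groups of 10 and 5 can give, adjusted p = 1). In the other direction TRBV26 TRBJ1-6 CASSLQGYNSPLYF, chosen likewise, was in 9 of 10 against 0 of 5 (Fisher's exact test p = 0.0020, adjusted p = 1). Each of these 2 clonotypes passed the filter of 5 to 12 libraries only through the group that held it, so neither Fisher p is support for a difference. On reads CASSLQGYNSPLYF was among the 12 called by DESeq2 (adjusted p 1.45e-05), subject to the filter for public clonotypes, and edgeR did not call it. No clonotype was in all 10 triple-therapy libraries and in 0 of the WTNT libraries (0 of 16468).

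The most abundant receptors of both groups were mostly short TRBV4 sequences. Over the 10 triple-therapy mice the highest mean was that of TRBV4 TRBJ2-7 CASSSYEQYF, at 1464 ± 546 CPM, against 1230 ± 251 CPM over the 5 WTNT mice, where it was also the highest. The lowest, median and highest triple-therapy values were 365, 1520 and 2273 CPM, and the WTNT values were 1349, 1548, 902, 1282 and 1066 CPM. The groups overlapped (log2 difference 0.14 ± 0.36, limma adjusted p 0.992). It led 6 of the 10 triple-therapy libraries and 3 of the 5 WTNT libraries in normalised counts. All 4 of its most read forms lacked inserted bases, and the leading one, printed here because it was found in all 15 mice with 65.5% of the reads of the clonotype, has 0 inserted bases.
TRBV4 TRBJ2-7 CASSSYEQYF: tgtgccagcagctcctatgagcagtacttc
TRBV4 TRBJ2-7 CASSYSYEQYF: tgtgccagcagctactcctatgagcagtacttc
TRBV4 TRBJ2-7 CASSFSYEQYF: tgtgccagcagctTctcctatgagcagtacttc
TRBV4 TRBJ2-4 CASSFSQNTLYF: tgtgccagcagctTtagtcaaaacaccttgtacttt
TRBV5 TRBJ2-5 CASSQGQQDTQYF: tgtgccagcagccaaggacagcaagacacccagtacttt
These were the 5 highest means of the triple-therapy mice. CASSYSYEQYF averaged 751 ± 267 CPM in triple-therapy mice and 885 ± 142 in WTNT mice. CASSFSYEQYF was read in 10 of 10 triple-therapy and 3 of 5 WTNT libraries, at 722 ± 512 and 327 ± 348 CPM (log2 difference 2.40 ± 0.85, limma adjusted p 0.977). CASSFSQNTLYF averaged 575 ± 318 and 633 ± 125 CPM. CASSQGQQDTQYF stood at 489 ± 779 CPM in triple-therapy mice and 213 ± 245 in WTNT mice, and NR 1 alone had 2660 CPM, which rested on 185 reads. The WTNT list had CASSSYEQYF, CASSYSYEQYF and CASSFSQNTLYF as well, with TRBV13-2 TRBJ2-5 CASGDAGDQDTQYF and TRBV4 TRBJ2-7 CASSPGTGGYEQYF (415 ± 293 CPM in triple-therapy mice and 621 ± 289 in WTNT mice).

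Ranked by reads, the leading clonotype differed from mouse to mouse, with 11 different leaders in 15 libraries. In 9 of the 10 triple-therapy libraries and 4 of the 5 WTNT libraries the leader held at most 0.232% of reads, and the exceptions were R 3 at 0.499% (95% Wilson interval 0.490 to 0.508) and WTNT 4 at 0.649% (0.637 to 0.663). Of the leaders absent from the other group, TRBV26 TRBJ1-2 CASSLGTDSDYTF had 4114 reads in NR 1, 0.232% of that library, and was read in 1 of 10 triple-therapy and 0 of 5 WTNT libraries. TRBV30 TRBJ1-2 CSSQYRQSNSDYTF led R 5 with 0.167%, TRBV24 TRBJ2-3 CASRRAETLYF led R 4 with 0.160%, and TRBV24 TRBJ2-7 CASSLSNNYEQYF led R 2 with 0.123%, all 3 unread in WTNT mice and found in 1, 2 and 1 of the 10 triple-therapy libraries. In WTNT 1 the leader was TRBV24 TRBJ1-6 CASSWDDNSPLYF with 0.0709%, read in 0 of 10 triple-therapy libraries. Leaders of 15 or more residues, 2 of the 15, are not printed.

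Segment usage, the share of each TRBV and TRBJ segment in normalised counts, was alike on average. On log2(percent + 0.01), limma gave no adjusted p under 0.05 among the 24 segments (0 called, 0%) and no unadjusted one (0, 0%). The interval of the difference lay within 0.25 on the log2 scale, either way, for 20 of the 24 segments and within 0.15 for 11, as the plot of segment differences shows. TRBJ1-6 came nearest among segments with a higher mean, at 2.59% ± 0.15 of normalised counts in triple-therapy mice (lowest 2.43, median 2.56, highest 2.79) and 2.53%, 2.45%, 2.60%, 2.23% and 2.32% in the WTNT mice. Its log2 difference was 0.10 ± 0.05 (limma adjusted p 0.861), and 5 triple-therapy mice lay above every WTNT mouse. TRBV3 (0.06 ± 0.05) and TRBV29 (0.05 ± 0.04) followed.

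**Figure D2:**
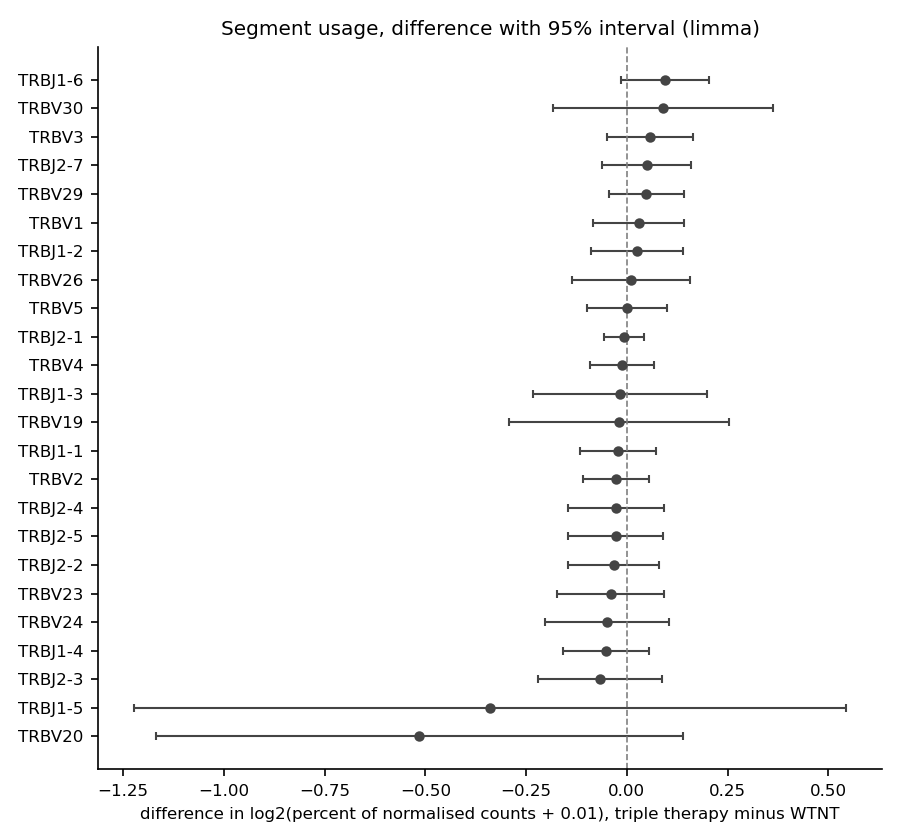
Difference in log2(percent of normalised counts + 0.01), triple therapy minus WTNT (horizontal axis), for the 24 TRBV and TRBJ segments tested, with limma 95% intervals. Every interval spans 0, and those of TRBV20 (-1.17 to 0.14) and TRBJ1-5 (-1.22 to 0.54) are the widest.

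TRBV20 came nearest among segments with a lower mean. It held 1.89% ± 0.64 of normalised counts in triple-therapy mice, with 0.404%, 1.99% and 2.71% as lowest, median and highest, against 2.76%, 2.29%, 2.97%, 2.29% and 2.14% in the WTNT mice. The lowest 2 values were those of R 3 (0.404%) and R 2 (1.31%). The log2 difference was -0.52 ± 0.31 (limma adjusted p 0.861), and without R 3 it was -0.29. In R mice alone it was -0.78 (limma adjusted p 0.680) and in NR mice alone -0.12 (limma adjusted p 0.882). R 3 also had the most reads, 2449606, and the fewest clonotypes, 45911, of the 15 mice. With each clonotype counted once TRBV20 held 1.46% ± 0.19 of clonotypes in triple-therapy mice and 1.66% ± 0.06 in WTNT mice, and 6 of 10 triple-therapy mice lay below every WTNT mouse (log2 difference -0.19 ± 0.08, limma adjusted p 0.267). TRBV29 counted in that way held 6.48% ± 0.25 and 6.13% ± 0.15, with 8 of 10 triple-therapy mice above every WTNT mouse (0.08 ± 0.03, limma adjusted p 0.238). Values beyond the WTNT range were also seen without aPD-1. In the 6 PLX+PTX mice of d105 TRBV29 held 6.67%, 6.90%, 6.17%, 6.56%, 6.71% and 6.66%, and in the 2 PTX mice 5.99% and 6.18% (WTNT 5.87% to 6.25%). TRBV20 held 1.31%, 1.39%, 1.60%, 1.45%, 1.29% and 1.43% in the PLX+PTX mice, and 1.52% and 1.44% in the PTX mice (WTNT 1.59% to 1.74%). TRBJ2-3 (-0.07 ± 0.07) and TRBJ1-4 (-0.05 ± 0.05) were the other segments with a lower mean and the lowest p in normalised counts.

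Superantigens of mouse mammary tumor virus bind receptors by their variable segment in mice, and strains lose or expand T cells of such segments. Of the segments listed for this, TRBV1, TRBV19, TRBV24, TRBV26 and TRBV29 were tested and 0 of 5 passed, while TRBV31 was listed in 0 of the 15 libraries. TRBV1 held 7.09% ± 0.56 and 6.93% ± 0.32 of normalised counts in triple-therapy and WTNT mice (log2 difference 0.03 ± 0.05). TRBV24 held 7.74% ± 0.94 and 7.96% ± 0.24 (-0.05 ± 0.07), TRBV26 11.7% ± 1.32 and 11.6% ± 0.46 (0.01 ± 0.07), and TRBV29 3.41% ± 0.21 and 3.29% ± 0.16. TRBV19 held 3.94% ± 0.81 and 3.92% ± 0.16 (-0.02 ± 0.13), and its sign depended on the scale and on single mice. The median log2 difference of the 5 was 0.01, that of TRBV26, against -0.02 over all 24 segments.

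The spread between mice was measured because it was seen to be wider in triple-therapy mice, so its p-values describe the pattern that prompted them and are no independent test. Averaged over the 24 segments, the SD of the log2 share was 0.19 in triple-therapy mice and 0.08 in WTNT mice (difference 0.10, exact permutation test, p = 0.0283), and 22 of 24 segments had the wider SD in triple-therapy mice. With each clonotype counted once, so that no abundant clone weighs more than another, the values were 0.10 and 0.04 (difference 0.06, exact permutation p = 0.000333, the smallest these regroupings can give), and 23 of 24 segments were wider. On the share of clonotypes the p stayed between 0.000500 and 0.0030 in the exact permutation test when any 1 of the 15 mice was left out. On normalised counts it exceeded 0.05 without WTNT 1 (p = 0.0699), WTNT 2 (p = 0.0689) or WTNT 4 (p = 0.0559), and in R mice alone (p = 0.108), each by the same exact permutation test. On raw reads the difference was 0.08 (exact permutation p = 0.0539).

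TRBV19 was an example of this. Its share of clonotypes ran from 6.41% through a median of 8.41% to 9.85% in the triple-therapy mice, against 9.001%, 8.97%, 8.61%, 8.97% and 9.07% in the WTNT mice. The triple-therapy values thus lay on both sides of a narrow WTNT range, with 5 mice below it and 3 above it. TRBJ1-5 ran from 0.758% to 2.42% of clonotypes in triple-therapy mice and from 1.46% to 1.90% in WTNT mice, and TRBV26 from 4.61% to 6.09% and from 4.85% to 5.08%. NR 1 had the highest TRBV26 (6.09%) and TRBV3 (16.3%) and the lowest TRBV24 (14.1%) and TRBV30 (0.422%) of the 15 mice. TRBJ2-5 was the exception, with an SD of 0.02 in triple-therapy mice and 0.03 in WTNT mice on the log2 scale.

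The labels give each triple-therapy mouse a number, and TRBV19 was lowest at low numbers, though not in strict order. R 1 and R 2, numbered 37584 and 37588, had 6.75% and 6.41% of clonotypes in TRBV19, the 2 lowest of the 10. R 6, NR 3 and NR 4, numbered 37881, 37868 and 37869, had 9.77%, 9.77% and 9.85%, the 3 highest. Between them, NR 1 (37759) had 8.20%, R 3 (37785) 7.83%, R 5 (37826) 8.62%, R 4 (37828) 7.07% and NR 2 (37847) 9.06%. Both mice of low number are R mice, while R 3 to R 6 are numbered 37785 to 37881 and the NR mice 37759 to 37869. Number and label thus coincide only in part, and the part of each was not tested. On another scale, normalised counts, TRBV19 held 3.58% ± 0.75 in R mice (n = 6) and 4.48% ± 0.63 in NR mice (n = 4), with a limma adjusted p of 0.178. Without R 1 and R 2 the difference in mean SD was 0.05 with each clonotype counted once (exact permutation p = 0.0031) and 0.10 in normalised counts (exact permutation p = 0.0629). The 6 PLX+PTX mice of d105, MMTV-PyMT mice with no aPD-1 in their label, had a mean SD of 0.08 with each clonotype counted once, between the values of the 2 groups compared. What the numbers stand for is not given, WTNT mice have none of that form, and the part of litter, cage or date in the spread was not tested. Depth moved with it as well, since reads and clonotype numbers were also more spread in the triple-therapy mice, and its part was not tested.

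R and NR mice form 1 group here by their shared treatment. Limma called 0 features in R minus NR, which does not show them to be alike. Shares at an unadjusted p under 0.05 in R minus NR were 25% of segments, 17.3% of pairs, 10% of lengths, 15% of amino acids, 7.51% of motifs and 5.51% of public clonotypes, with 0% called in each.

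**Figure D3:**
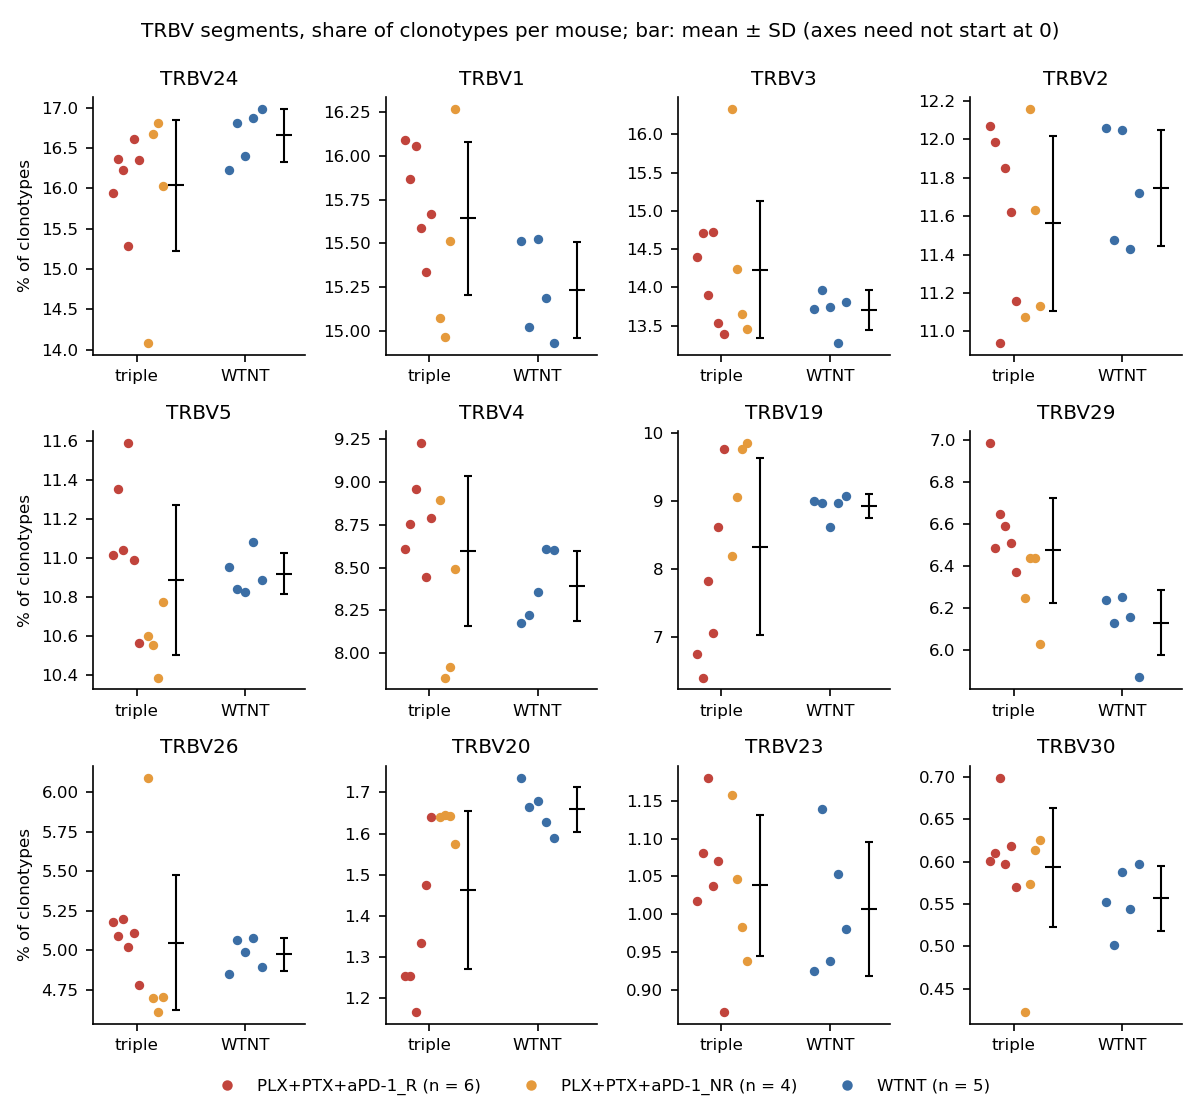
Percent of the clonotypes of a library (vertical axis, each clonotype counted once) that use each of the 12 tested TRBV segments, with 1 point per mouse, R and NR mice in different colours, and mean ± SD beside each group. Triple-therapy mice are wider than WTNT mice in all 12 panels, and in TRBV19 they run from 6.41% to 9.85% against 8.61% to 9.07%.

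Among pairs of a TRBV and a TRBJ segment, limma called 0 of 104 (0%), and 5 had an unadjusted p under 0.05 (4.81%). TRBV29 TRBJ2-7 held 0.904%, 1.03% and 1.19% of normalised counts as lowest, median and highest in triple-therapy mice and 0.988%, 0.864%, 1.03%, 0.972% and 0.840% in WTNT mice (log2 difference 0.16 ± 0.07, limma adjusted p 0.951). TRBV26 TRBJ1-6 (0.17 ± 0.08) and TRBV26 TRBJ2-1 (0.15 ± 0.07) were the other 2 of lowest p on that side. TRBV20 TRBJ2-2 held 0.246% ± 0.104 in triple-therapy mice and 0.370% ± 0.036 in WTNT mice (-0.73 ± 0.33), and TRBV20 TRBJ2-1 (-0.55 ± 0.27) and TRBV20 TRBJ2-4 (-0.55 ± 0.29) lay on the same side. Without R 3 the last 2 were -0.36 each. Each of the 6 had a limma adjusted p of 0.951.

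CDR3 length, counted from the conserved cysteine to the phenylalanine, averaged 13.79 ± 0.02 residues in triple-therapy mice and 13.79 ± 0.01 in WTNT mice. Limma called 0 of 10 lengths (0%), and 2 had an unadjusted p under 0.05 (20%). CDR3s of 11 residues held 4.38% ± 0.20 of normalised counts in triple-therapy mice (lowest 4.13, median 4.32, highest 4.71) and 4.19%, 4.14%, 4.07%, 4.12% and 3.88% in WTNT mice, with 8 of 10 triple-therapy mice above every WTNT mouse. The log2 difference was 0.10 ± 0.04 (limma adjusted p 0.119), while with each clonotype counted once it was 0.03 (adjusted p 0.410). In R mice alone it was 0.06 (adjusted p 0.553) and in NR mice alone 0.15 (adjusted p 0.0104), and the test of R minus NR did not call it (adjusted p 0.293). CDR3s of 13 residues held 22.7% ± 0.45 and 23.2% ± 0.32 (-0.03 ± 0.01, limma adjusted p 0.204). The remaining named lengths, 9 and 18 on the higher side and 17 and 12 on the lower side, had adjusted p values of 0.552 to 0.797.

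The residues in the middle of the loop, leaving out 4 at each end, are those that most often reach the peptide. Limma called 0 of 20 amino acids (0%), and 1 had an unadjusted p under 0.05 (5%). This was tryptophan (W), an aromatic residue, at 2.51% ± 0.05 of residues in triple-therapy mice and 2.44% ± 0.06 in WTNT mice (log2 difference 0.04 ± 0.02, limma adjusted p 0.700). Serine (S, 0.02) and phenylalanine (F, 0.02) followed on that side, and asparagine (N, -0.02), valine (V, -0.02) and glutamine (Q, -0.02) on the other. Hydrophobic residues at both CDR3 positions 6 and 7 are a measure linked to self-reactivity in mice. Clonotypes with them held 2.63% ± 0.12 of normalised counts in triple-therapy mice and 2.58% ± 0.06 in WTNT mice (exact permutation p = 0.393). With each clonotype counted once the difference, triple therapy minus WTNT, turned sign (-0.0479, percent of clonotypes).

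Motifs of 3 residues within the loop gave 0 calls of 1211 in limma (0%), with 53 at an unadjusted p under 0.05 (4.38%). LET had the lowest p, at 0.0192% ± 0.0050 of motifs in triple-therapy mice and 0.0113% ± 0.0048 in WTNT mice (log2 difference on log2(percent + 0.001) of 0.76 ± 0.20, limma adjusted p 0.998). LDG held 0.0410% ± 0.0061 and 0.0295% ± 0.0046, and 8 of 10 triple-therapy mice lay above every WTNT mouse (0.46 ± 0.14). DPW (0.55 ± 0.17) followed. PRG was lower in triple-therapy mice, at 0.0708% ± 0.0057 against 0.0853% ± 0.0065, with 8 of 10 below every WTNT mouse (-0.27 ± 0.08), as were LNQ (-0.35 ± 0.12) and DFS (-0.80 ± 0.28). All 6 had a limma adjusted p of 0.998.

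FVB mice are known to lack a block of TRBV segments in the germline, and the 9 segments listed for that block (TRBV12-1, TRBV12-2, TRBV13-1, TRBV13-2, TRBV13-3, TRBV14, TRBV15, TRBV16 and TRBV17) were read in both groups. They held 0.173% ± 0.199 of reads in triple-therapy mice (lowest 0.0270, highest 0.647) and 0.275% ± 0.337 in WTNT mice (0.0252, 0.335, 0.107, 0.838 and 0.0701). The groups overlapped (exact permutation p = 0.499), and the difference changed sign without WTNT 4. No segment of the list reached the mean share of 0.1% needed for the limma test, and TRBV13-2 was the highest of them, at 0.043% ± 0.053 and 0.069% ± 0.086 of normalised counts. The number of clonotypes assigned to the list ran from 27 to 85 in triple-therapy libraries and from 29 to 125 in WTNT libraries.

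One sequence made up most of these reads in sum. It is shown because it was read in all 15 mice with the same bases.
TRBV13-2 TRBJ2-5 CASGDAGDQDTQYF: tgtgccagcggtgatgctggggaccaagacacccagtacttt
The clonotype held 70.6% of the reads of the list in the triple-therapy mice and 74.2% in the WTNT mice. By library its share ran from 28.8% (R 1) and 36.3% (R 5) to 84.6% (NR 3) in triple-therapy mice and from 60.1% to 77.5% in WTNT mice, and R 3 gave 12224 of the 23752 triple-therapy reads. Over all 15 mice 99.5% of its 39560 reads had this form, which has 0 inserted bases. By comparison, the form of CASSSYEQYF found in all mice held 65.5% of its clonotype. Reads of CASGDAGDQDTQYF ran from 141 in R 1 to 12224 in R 3 among triple-therapy libraries, and were 205, 4044, 1135, 9580 and 844 in WTNT 1 to 5. R 3 and WTNT 4 were the highest of their groups. It was the most read clonotype of 3 triple-therapy libraries (R 3, R 6 and NR 2) and 2 WTNT libraries (WTNT 2 and WTNT 4). The source of these reads was not tested.

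**Figure D4:**
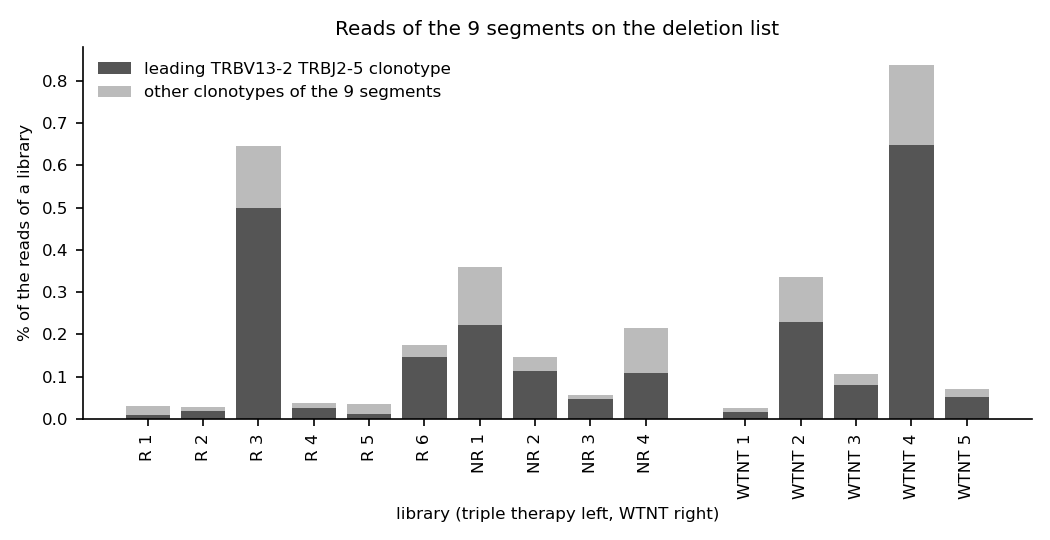
Percent of the reads of each library (vertical axis, from 0) assigned to the 9 segments of the deletion list, with the part of the leading TRBV13-2 TRBJ2-5 clonotype in dark grey and all other clonotypes of the list in light grey. R 3 reached 0.647% among triple-therapy libraries and WTNT 4 reached 0.838% among WTNT libraries.

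None of the 8 planned measures passed the threshold in exact permutation tests, and the adjusted p was 0.499 for all 8. They are the diversity measures given here with mean CDR3 length, the hydrophobic share and the deletion-list share given above. Clonality, which is 0 when all clonotypes are equally abundant and 1 when 1 clonotype holds everything, was 0.0570 ± 0.0047 in triple-therapy mice and 0.0551 ± 0.0017 in WTNT mice (exact permutation p = 0.408). At equal depth 57517 ± 12674 clonotypes were found in triple-therapy mice and 63003 ± 6493 in WTNT mice (exact permutation p = 0.382). The triple-therapy mice ran from 38902 in R 3 to 78285 in R 2, and the WTNT mice had 63555, 62362, 60122, 55678 and 73297. The 10 most abundant clonotypes held 0.791% ± 0.166 and 0.675% ± 0.112 of normalised counts (exact permutation p = 0.191). Clonality and the counts and shares given here took each listed nucleotide sequence as a clonotype, not merged by amino acid CDR3. Merged, the leading clonotype alone held from 0.107% (WTNT 5) to 0.278% (R 1) of normalised counts. Expanded clonotypes, nucleotide sequences with at least 0.1% of a library each, held 0.224% ± 0.172 in triple-therapy mice and 0.0857% ± 0.118 in WTNT mice (exact permutation p = 0.128). Such single sequences were found in 8 of 10 and 2 of 5 mice. In raw reads the signs of these last differences turned, to -0.03 for the 10 most abundant and -0.01 for expanded clonotypes (percent of reads). Nucleotide forms per amino acid clonotype numbered 1.086 ± 0.015 and 1.093 ± 0.006 (exact permutation p = 0.325).

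**Figure D5:**
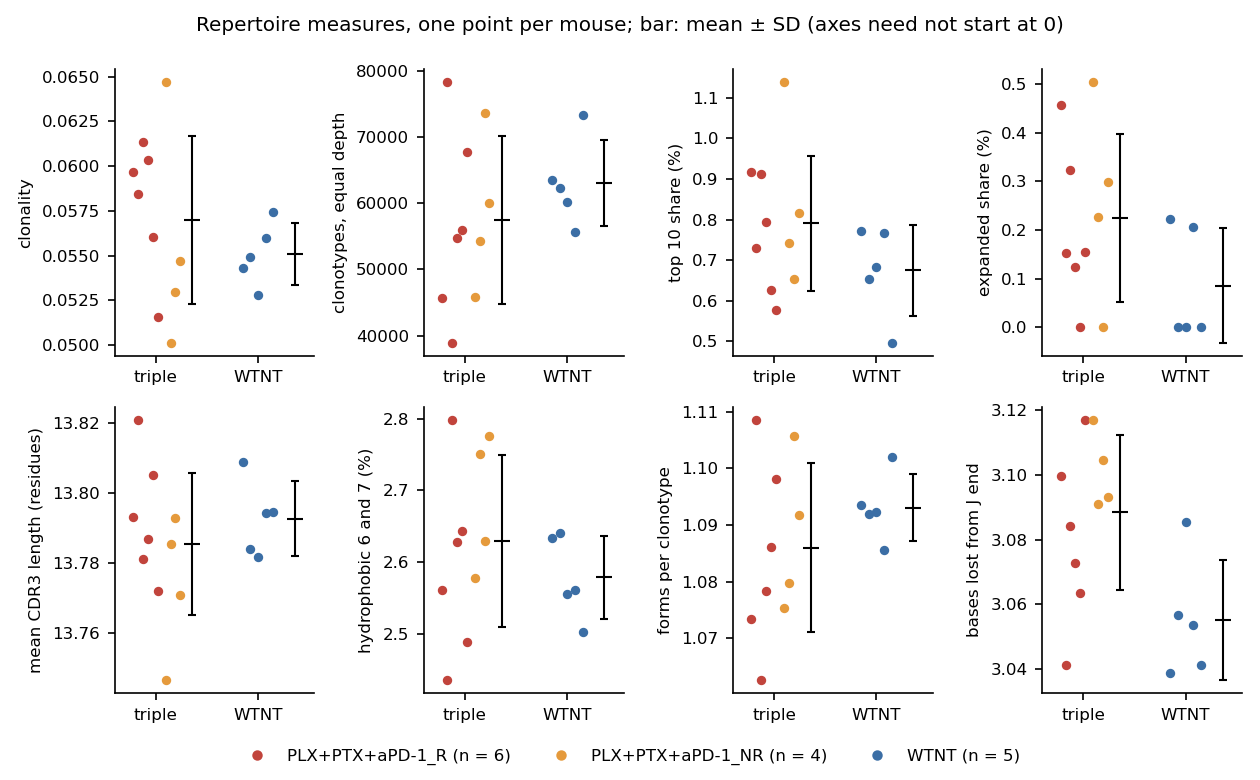
Repertoire measures (vertical axes, each with its unit) for the 10 triple-therapy mice and the 5 WTNT mice, with 1 point per mouse and mean ± SD beside each group. The groups overlap in all 8 panels, and the number of clonotypes at equal depth runs from 38902 to 78285 in triple-therapy mice against 55678 to 73297 in WTNT mice.

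Sharing between mice followed the same pattern. Of 635945 amino acid clonotypes in the 15 libraries, 82.7% were found in 1 library only and 211 in all 15. Clonotypes found in 1 of the 15 libraries held 47.9% ± 0.62 of normalised counts in triple-therapy mice and 47.6% ± 0.74 in WTNT mice, and the 5242 public ones held 12.9% ± 0.39 and 12.8% ± 0.14. The Morisita-Horn index, which is 0 for no shared clonotype and 1 for equal repertoires, averaged 0.217 over the 45 pairs of triple-therapy mice, 0.238 over the 10 pairs of WTNT mice and 0.225 over the 50 pairs across groups. Overlap within groups minus overlap between them was 0.0020 (exact permutation p = 0.440).

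The junctions were examined with 5 measures chosen after the values were seen, each weighted by normalised counts. Inserted bases averaged 3.35 ± 0.03 in triple-therapy mice and 3.35 ± 0.01 in WTNT mice. Clonotypes without inserted bases held 12.2% ± 0.39 and 12.2% ± 0.22 of normalised counts. Bases deleted from the J end averaged 3.09 ± 0.02 and 3.06 ± 0.02, a difference of 0.03 ± 0.01 (SE) with an exact permutation p of 0.0203 (adjusted over the 5 measures 0.102). The WTNT values were 3.04, 3.06, 3.09, 3.05 and 3.04, which overlapped the triple-therapy range of 3.04 to 3.12. Bases deleted from the V end (2.96 ± 0.02 and 2.96 ± 0.02) had an adjusted p of 0.932, and the share of TRBD1 among D calls (54.2% ± 0.70 and 54.6% ± 0.13) one of 0.554, by the same exact permutation test.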

How the data were processed

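Per the labels' protocols, DNA came from digested lymph nodes and was read as 2 x 150 bases. The deposited clone count is in counts of reads per clonotype, and the 2 rescaled columns, the normalized clone count used as main scale and the nb clone count, are scores that the authors derived. Checked on the files, the score divided by the count was nearly the same in every library within a segment pair (median spread 0.183% over 118 pairs), with factors from 0.206 to 75.5, so 1 read weighs very differently between pairs. Aligner, clonotype caller and build: not given in the sources used here. Labels gave the groups; 0 sample columns were left unmapped.

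Shares in percent of normalised counts, made from the deposited scores, were tested as log2(percent + 0.01), motifs with 0.001 and clonotypes as log2(CPM + 10), with limma 3.58.1 in R 4.3.3 over the 23 d105 libraries, which share 1 estimate of spread. Features needed a mean of 0.1% (motifs 0.01%), and clonotypes, merged by segments and amino acid CDR3, 50% of libraries. Adjustment was Benjamini-Hochberg over all features of a kind, with a threshold of 0.05. Single measures had exact permutation tests over all regroupings and presence Fisher's exact test (scipy 1.17.1), all 2-sided. Richness, forms and presence used libraries thinned to 1090573 reads. Alternatives were DESeq2 1.42.0 and the quasi-likelihood test of edgeR 4.0.16 on reads, raw reads in limma, nb clone counts, each clonotype counted once, other pseudocounts and filters, R or NR mice alone and leaving out each mouse. The code of the limma contrast was checked on simulated reads with large known changes and equal spread in all groups. That of the exact tests was checked on invented groups without overlap. Both differ from the scores tested here, so these checks do not show how the tests perform on them. Nothing states that mice of a group were raised apart, so p-values measure the spread between these mice.

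The comparison, lists and measures were chosen with earlier results of these data known. Named segments, pairs, lengths, residues and motifs are the 3 of lowest p per direction plus the fixed lists. Named clonotypes are the 4 of lowest p per direction, the 5 highest means of each group, the leaders of each library and the leader of the deletion list. A few more were named after their values were seen: both clonotypes of the presence test and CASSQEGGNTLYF, called in 1 alternative. CDR3s of 15 or more residues are not printed.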

Additional observations from a re-analysis of the deposited data

Results flagged for a closer look

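In 124 groups of values, each 1 named feature or measure in 1 of the 2 groups, 12 held a mouse far from the rest by Dixon's test (9.68%), a test that flags about 1 in 20 by chance. Clonotypes chosen for a low p are prone to it, since most WTNT mice had none.

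Among WTNT mice, WTNT 1 had 8.07 CPM of TRBV1 TRBJ2-3 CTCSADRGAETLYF, WTNT 3 had 55.0 CPM of TRBV2 TRBJ2-1 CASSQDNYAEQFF, WTNT 2 had 13.2 CPM of TRBV5 TRBJ2-7 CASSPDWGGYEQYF and WTNT 4 had 11.3 CPM of TRBV3 TRBJ2-7 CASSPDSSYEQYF, where the other 4 mice were at or near 0. WTNT 1 also had 0.0157% of motifs as DPW.

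Among triple-therapy mice, NR 1 stood apart in TRBV5 TRBJ2-5 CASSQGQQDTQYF (2660 CPM) and in the pair TRBV26 TRBJ1-6 (0.435% of normalised counts). R 3 stood apart in TRBV13-2 TRBJ2-5 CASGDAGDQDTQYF (1702 CPM) and in the pair TRBV20 TRBJ2-4 (0.0439%). R 4 had the highest share of tryptophan (W, 2.63%), R 1 had 7.36 CPM of TRBV1 TRBJ2-7 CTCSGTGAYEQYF and NR 4 had 26.1 CPM of TRBV19 TRBJ2-7 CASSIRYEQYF.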

How the results depend on the processing

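No paired analysis was possible because mice were numbered only as deposited, and equal numbers in both groups mark no shared litter or day. Counts of called segments, pairs, amino acids, motifs and present clonotypes were 0 under every alternative run. CDR3 lengths called numbered 1 in NR mice only. Shared clonotypes called numbered 12 with DESeq2, 1 with only the 15 libraries in the fit (TRBV2 TRBJ2-4 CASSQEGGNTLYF, -2.04), 1 in raw reads (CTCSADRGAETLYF, 2.63) and 0 to 1 when 1 mouse was left out, the 1 without WTNT 3 (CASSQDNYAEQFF). The cause was not tested for any of these. Single measures that turned sign were the top 10 share (-0.0303) and expanded share (-0.0124) in raw reads, mean CDR3 length counted once (0.0102) and in R mice (0.000539), and the hydrophobic share counted once (-0.0479). Leaving out 1 mouse moved the deletion-list share from -0.165 to 0.0384, the last without WTNT 4, and overlap within minus between from -0.00109 (without WTNT 2) to 0.00416, with -0.000207 without WTNT 5 and -0.000421 in NR mice. The difference in spread on normalised counts was 0.0977 in R mice, 0.0969 without the 2 R mice of low number, 0.0812 in raw reads and 0.0749 to 0.112 when 1 mouse was left out.

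Log2 differences that turned sign, none called on either side, were these. TRBJ1-4 was 0.00339 counted once and 0.0171 in NR mice. TRBV19 was 0.00155 in raw reads, 0.183 in NR mice, 0.0843 without the low numbers, 0.0227 in edgeR, 0.0260 in DESeq2 and -0.0585 to 0.0357 leaving out 1 mouse. TRBV26 was -0.0438 in NR mice, -0.00971 without the low numbers and -0.0241 to 0.0314 leaving out 1 mouse. Length 18 was -0.00620 in raw reads, -0.00408 in edgeR and -0.0216 in DESeq2. Length 17 was 0.0470 counted once and -0.0422 to 0.000510 leaving out 1 mouse. Length 12 was 0.0159 in raw reads, 0.00905 in nb clone counts, 0.0155 in NR mice only, 0.00353 without the low numbers, 0.0154 in edgeR and -0.0213 to 0.00609 leaving out 1 mouse. Serine was -0.000527 counted once and glutamine 0.00662 in R mice. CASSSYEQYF was -0.0441 in R mice and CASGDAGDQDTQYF 0.117 in NR mice. TRBV1 TRBJ2-7 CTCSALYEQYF, leader of R 5, was 0.0124 in raw reads, 0.181 with a 10 times higher pseudocount, 0.437 in R mice, 2.23 in edgeR and -0.793 to 0.288 leaving out 1 mouse.

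With 5 WTNT mice, segment differences under about 0.11 on the log2 scale and clonotype differences under 0.97 lay within the median interval.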
